A study of Homo sapiens with 9 samples.

Results

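Open chromatin was examined across 3 genes, MECOM, TLN2 and GALNT14, in SK-N-BE(2)c, a line of neuroblastoma cells. The members were all regions of the count table whose centre lay within the GRCh38 span of one of these genes or within 50 kb of either end, which gave 146 of 148797 regions. MECOM held 68 of them, TLN2 47 and GALNT14 31. The genes were chosen by the measured fall of 1 region in each, called the shared-loss region here, which had fewer counts under each of 2 antisense oligonucleotides (ASOs) than under a control ASO. The libraries were ATAC-seq, which counts DNA fragments that the transposase Tn5 cuts out of accessible chromatin. Cells were transfected by lipofection with ASO2 or ASO10, both directed at the long non-coding RNA NESPR, or with NCA, the negative control ASO, each at 100 nM. They were collected after 48 h, and each group had 3 libraries. The parental line and the 100 nM transfection were common to all groups, and an untransfected group was not analysed here. No RNA was measured in these libraries, so how far NESPR itself was lowered was not measured. The labels do not say whether the 3 libraries of a group came from separate cultures, so p-values measure the spread between libraries, which may be technical.

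The 3 genes lie on different chromosomes and work in different parts of the cell. MECOM encodes zinc-finger transcription factors of the PRDM family, and it has a far upstream start for the MDS1-EVI1 form and internal starts for the shorter EVI1 form, which is known for its role in blood stem cells and in leukaemia. TLN2 encodes talin-2, which links the cytoplasmic tails of integrins to actin at sites of cell adhesion. GALNT14 encodes a Golgi enzyme that places the first sugar, N-acetylgalactosamine, on serine and threonine residues in mucin-type O-glycosylation. Accessible regions inside a gene and far from its start are often enhancers, and such a region can act on its host gene, on another gene, or on none.

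Library totals ran from 7293565 to 10948569 counts. The first principal component, with 20.7% of the variance, set the ASO2 libraries apart from the other 6. At the starts of 5 adrenergic neuroblastoma markers, PHOX2A, HAND2, GATA3, ISL1 and DBH, all 5 had a region in NCA, with 18.2 to 28.2 CPM (counts normalised to library size). Of 7 mesenchymal markers, 5 had a start region (VIM, FOSL2, YAP1, WWTR1 and FN1) and PRRX1 and CD44 had none, nor had PTPRC of blood cells or ALB of liver. The other listed markers were absent from the promoter table and were not assessed.

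The shared-loss region of MECOM lay on chromosome 3 from 169391734 to 169392089, 244 kb from the nearest annotated start. In NCA it held 51, 51 and 48 counts, or 6.57, 6.43 and 5.45 CPM. Under ASO2 it held 16, 21 and 17 counts (2.25, 2.25 and 1.56 CPM), and under ASO10 it held 14, 23 and 21 counts (1.64, 2.62 and 2.73 CPM). The ASO groups overlapped each other and neither overlapped NCA. The log2 fold change against NCA was -1.61 ± 0.36 (SE) for ASO2 and -1.40 ± 0.36 for ASO10, and the mean levels were 32.8% and 37.9% of that in NCA.

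The shared-loss region of TLN2 lay on chromosome 15 from 62622798 to 62623141, 232 kb from the gene start and close to the middle of the gene. Its counts were 48, 47 and 59 in NCA, 20, 26 and 21 under ASO2 and 23, 12 and 12 under ASO10. These were 6.18, 5.93 and 6.69 CPM in NCA, 2.81, 2.79 and 1.93 CPM under ASO2, and 2.70, 1.37 and 1.56 CPM under ASO10. ASO10 replicate 1 sat with the ASO2 libraries, above the other ASO10 libraries, and every NCA library was above all 6 ASO libraries. The log2 fold change was -1.33 ± 0.35 for ASO2 and -1.73 ± 0.36 for ASO10. Without ASO10 replicate 1 the ASO10 value was -2.09.

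GALNT14 had its shared-loss region on chromosome 2 from 30943167 to 30943575, 186 kb from the nearest start. This was the shallowest of the 3, with 22, 42 and 23 counts in NCA, 3, 12 and 18 under ASO2 and 8, 6 and 9 under ASO10. In CPM it stood at 2.83, 5.30 and 2.61 in NCA, at 0.421, 1.29 and 1.65 under ASO2, and at 0.938, 0.683 and 1.17 under ASO10. NCA replicate 2 was well above the other NCA libraries, yet even the lowest NCA library exceeded every ASO library. The log2 fold change was -1.61 ± 0.52 for ASO2 and -1.93 ± 0.54 for ASO10, and without NCA replicate 2 these became -1.23 and -1.54.

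These 3 values chose the regions and are given as a description, with no test. Over all 119417 regions tested, 70 were called lower under both ASOs, or 0.0586%, and each of the 3 genes held 1 of them. By the average log2 fold change over both ASOs, the falls in GALNT14, TLN2 and MECOM ranked 1, 2 and 3 among these 70. Their sizes are thus the extremes of a selected set and not typical of it. A region is called here when edgeR's quasi-likelihood test gives a p under 0.05 after Benjamini-Hochberg adjustment over all tested regions. GALNT14 was just inside that rule, with adjusted p-values of 0.0380 for ASO2 and 0.0382 for ASO10. The member region just outside it was another TLN2 region, 62781230 to 62781482, at 0.130 and 0.152. With 1 library left out, GALNT14 met the rule only without ASO2 replicate 3, TLN2 met it except without ASO2 replicate 3, and MECOM met it except without ASO10 replicate 1 or 3 or NCA replicate 1 or 2. Under these 9 omissions the log2 fold changes ran from -2.13 to -1.23 in GALNT14, -2.09 to -1.16 in TLN2 and -1.71 to -1.19 in MECOM. Between the ASOs, the log2 difference (ASO2 minus ASO10) at the shared-loss regions was -0.22 ± 0.39 for MECOM, 0.40 ± 0.39 for TLN2 and 0.32 ± 0.58 for GALNT14. The choice of regions low under both ASOs keeps these differences small, so nothing is read from them.

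**Figure D1:**
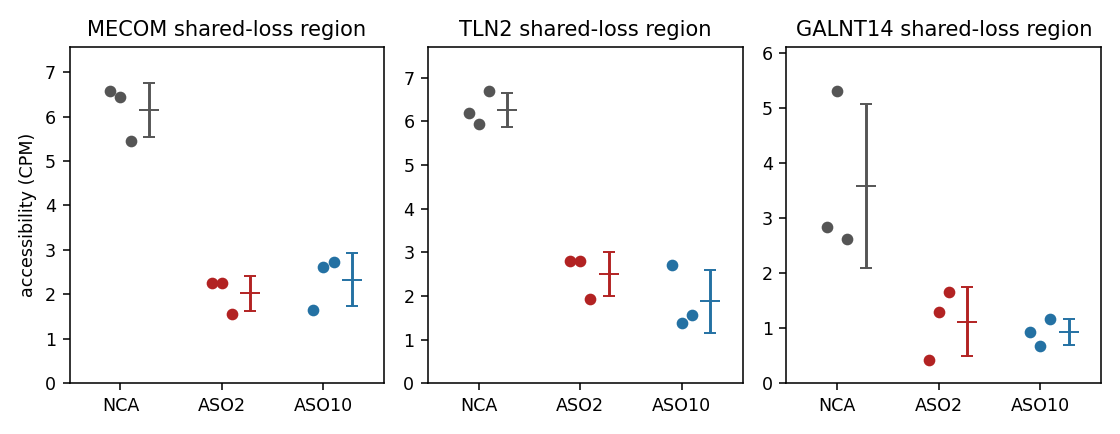
Level of the shared-loss region of each gene in CPM (vertical axis, from 0) by group, with 1 point per library and the mean with its SD. In MECOM, TLN2 and GALNT14 all 6 ASO libraries sit below the lowest NCA library (5.45, 5.93 and 2.61 CPM).

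The 3 regions were of ordinary width and moderate level in NCA. They spanned 356, 344 and 409 bases, against a median of 373 over the whole table, and their NCA level exceeded that of 74.7% (MECOM), 75.2% (TLN2) and 60.4% (GALNT14) of tested regions. Within its own gene, the TLN2 region ranked 4 of 47 by NCA level and moved to 16 under ASO2 and 22 under ASO10. The MECOM region moved from rank 22 of 68 to 45 and 40, and the GALNT14 region from rank 11 of 31 to 24 and 25. These falls in rank follow from the choice of regions lower under both ASOs, so nothing is read from them. In bulk chromatin, fewer cells with the region open and less opening per cell cannot be told apart. All 3 lay inside the gene span, at 46.8%, 51.2% and 77.5% of the gene length from the first start. Exon positions and the sequence of these regions were not used here.

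What stood directly beside the shared-loss regions differed between the genes. In MECOM, a region of 1537 bases, from 169389434 to 169390970, ended 763 bases before the shared-loss region. It had 7.60, 8.07 and 9.53 CPM in NCA, 10.2, 11.6 and 13.7 under ASO2, and 9.38, 6.26 and 7.03 under ASO10. Every ASO2 library was above every NCA library, while ASO10 overlapped NCA. Against NCA the log2 fold change was 0.50 ± 0.20 for ASO2 (adjusted p = 0.146) and -0.16 ± 0.21 for ASO10, and ASO2 was above ASO10 by 0.66 ± 0.21 (adjusted p = 0.0461). That last call was lost without any 1 of the ASO2 libraries, without ASO10 replicate 2 or 3, and with DESeq2, loess offsets, no filter or the replicate block, at adjusted p-values of 0.0532 to 0.288.

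On the other side of it, the region 169394286 to 169394617 began 2196 bases away. It held 1.42, 3.66 and 0.908 CPM in NCA, 4.21, 5.69 and 4.86 under ASO2, and 1.29, 2.84 and 1.56 under ASO10. ASO2 was above both other groups in all its libraries. It rose under ASO2 by 1.31 ± 0.40 on the log2 scale (adjusted p = 0.0216), was -0.05 ± 0.43 under ASO10 (adjusted p = 0.982), and differed between the ASOs by 1.36 ± 0.40 (adjusted p = 0.0247). The ASO2 call was lost without ASO2 replicate 2 or 3, without NCA replicate 1 or 3 and with DESeq2 (adjusted p = 0.0724 to 0.230), and the difference between ASOs without ASO2 replicate 2 or 3, without ASO10 replicate 1 or 3 and with DESeq2 (0.0700 to 0.182). The size of the ASO2 rise moved to 2.08 without NCA replicate 2 and 0.96 without NCA replicate 3. In MECOM the shared loss thus stood between regions that were not lower under ASO2, 1 of which rose.

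Because the first of these lies within 1 kb of the shared-loss region, their counts were also summed, a step chosen after the data were seen. The sum in MECOM was 14.5 ± 0.405 CPM with NCA, 13.9 ± 1.37 with ASO2 and 9.89 ± 1.08 with ASO10 (SD, n = 3). The log2 fold change of the sum was -0.06 ± 0.17 for ASO2 and -0.56 ± 0.18 for ASO10. The sum holds the counts that chose the region and those of a neighbour with a higher level, and other region borders were not tested.

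GALNT14 also had a region close by, 30942543 to 30942695, of 153 bases, which ended 471 bases before its shared-loss region. It held 1.55, 1.39 and 1.48 CPM in NCA, 1.96, 1.29 and 1.47 under ASO2, and 0.821, 1.59 and 0.391 under ASO10. The groups overlapped, and the log2 fold change was 0.09 ± 0.63 for ASO2 and -0.63 ± 0.66 for ASO10. Summed with the shared-loss region, the level was 5.05 ± 1.42 CPM with NCA, 2.69 ± 0.381 with ASO2 and 1.87 ± 0.368 with ASO10, or -0.89 ± 0.37 and -1.42 ± 0.38 on the log2 scale. On the far side, the next tested region, 30949449 to 30949693, began 5873 bases away and had log2 fold changes of 0.24 ± 0.45 and 0.22 ± 0.45.

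TLN2 had nothing so near. On the side before it, the closest regions did not pass the filter on low counts. That at 62616317 to 62616490 ended 6307 bases away, with means of 1.0, 0.291 and 0.844 CPM in NCA, ASO2 and ASO10. That at 62610018 to 62610182 ended 12615 bases away, with 0.5, 1.25 and 0.416 CPM. The first tested region before the shared-loss region, 62591566 to 62591752, ended 31045 bases away and held at most 12 counts in any library. Its average log2 fold change over both ASOs was 0.03 ± 0.83. The region after the shared-loss region, 62637506 to 62638184, began 14364 bases away. Its log2 fold changes were 0.35 ± 0.30 for ASO2 and -0.07 ± 0.31 for ASO10. None of the adjacent tested regions of TLN2 and GALNT14 was called in any of the 4 comparisons.

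**Figure D2:**
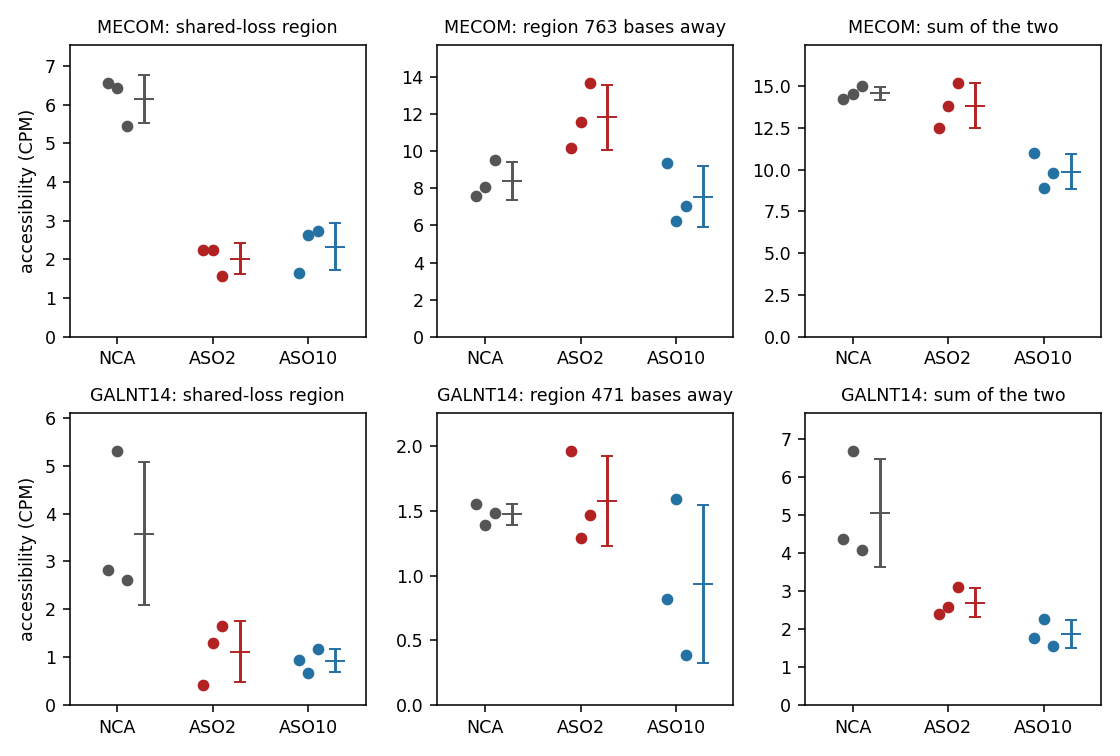
Levels in CPM (vertical axis, from 0) of the shared-loss region, the closest region within 1 kb and their sum, by group for MECOM and GALNT14, with 1 point per library and the mean with its SD. The MECOM sum is 14.5 CPM in NCA and 13.9 CPM under ASO2, while the GALNT14 sum is 5.05 and 2.69 CPM.

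Beyond these, the other regions of the 3 genes were taken by position alone, and 122 of the 143 neighbours passed the filter on low counts (61 in MECOM, 35 in TLN2 and 26 in GALNT14). The low-count neighbours reached at most 2.46 CPM in any library in MECOM, 3.05 in TLN2 and 2.45 in GALNT14. In MECOM 12 of 61 tested neighbours rose under ASO2, or 19.7%, against 4.79% of all tested regions, and none fell (0.808% of all). Under ASO10, 2 rose, or 3.28%, against 0.876% of all, and none fell (0.210%). For the average of both ASOs 6 rose, or 9.84%, against 2.40%, and none fell (0.594%). In the direct comparison 5 were higher under ASO2 than ASO10, or 8.20%, against 2.54%, and none lower (0.682%). For these zeros, edgeR found 1, 1, 3 and 1 MECOM neighbours lower at an unadjusted p under 0.05, in the same order of comparisons, and DESeq2 and limma-voom called none lower. DESeq2 called 9 higher under ASO2 and 2 under ASO10, as did limma-voom, although DESeq2 gave no adjusted p for 10 and 39 of the 61. Without ASO2 replicate 1 or NCA replicate 2, 7 neighbours of the 3 genes were called under ASO2 in place of 12. For the average, 8 neighbours of the 3 genes were called, and 3 to 5 without any 1 library other than ASO10 replicate 2. Between the ASOs 1 was called without ASO2 replicate 2 and 3 without any 1 ASO10 library, in place of 5.

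The median log2 fold change of the tested MECOM neighbours was 0.252 for ASO2 and 0.093 for ASO10, where the medians of all tested regions were -0.024 and -0.007. The summed level of all 67 neighbours was 356, 349 and 375 CPM in NCA, 428, 470 and 430 under ASO2 and 419, 392 and 409 under ASO10. All 6 ASO libraries were above all NCA libraries, and the means were 123% (ASO2) and 113% (ASO10) of that in NCA. With the 13 regions called in any comparison set aside, the remaining 54 summed to 279 ± 8.31 CPM (NCA), 290 ± 18.8 CPM (ASO2) and 301 ± 10.6 CPM (ASO10), as mean ± SD of 3 libraries. The ASO2 libraries then overlapped NCA (276 to 311 against 270 to 286 CPM), while the ASO10 libraries did not (290 to 310 CPM). The regions set aside were picked by calls in these same data, 12 of them higher under ASO2 and 2 under ASO10. Setting them aside lowers ASO2 more than ASO10, so nothing is read from this contrast between the ASOs. No test was made on these sums.

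**Figure D3:**
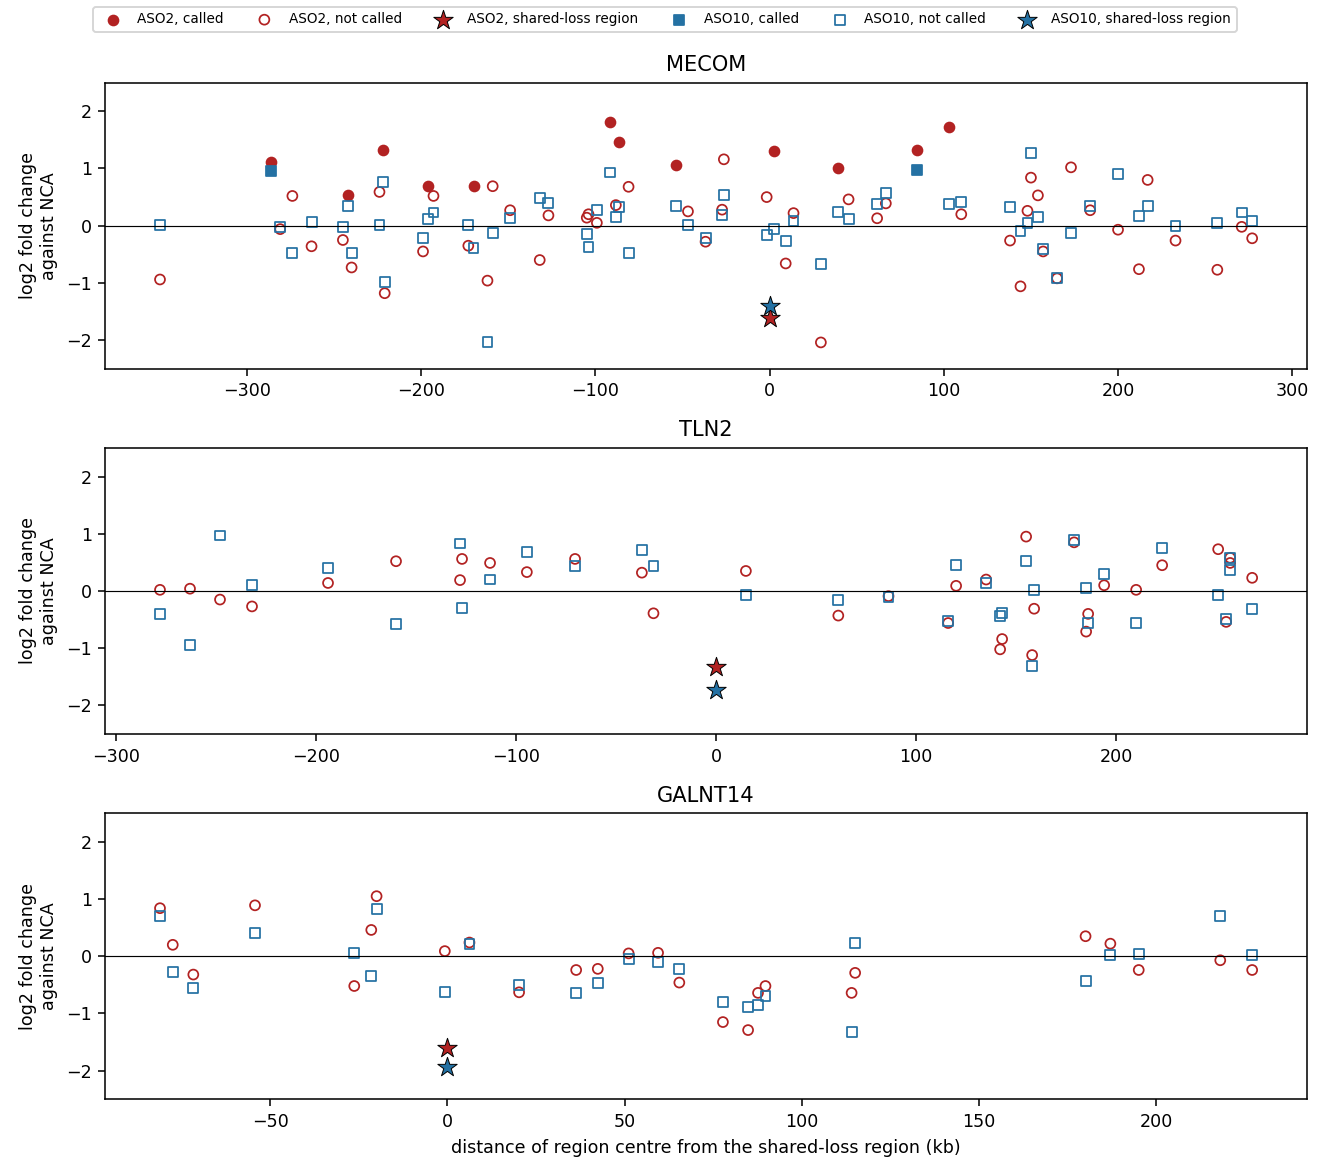
Log2 fold change against NCA (vertical axis) of each tested region for ASO2 and ASO10, by distance in kb of its centre from the shared-loss region (horizontal axis, rising with the chromosome coordinate). Filled points are called and stars are the shared-loss regions, which lie at -1.33 or below. The called points are all in MECOM and above 0.

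In MECOM 2 regions rose under each ASO in separate comparisons, as did 0.459% of all tested regions. The first, 169105284 to 169106788, lay toward the 3′ end of the gene, 286 kb from the shared-loss region. It had 8.12, 8.07 and 7.94 CPM in NCA, 18.9, 16.0 and 17.8 under ASO2, and 15.7, 16.2 and 14.8 under ASO10. The ASO groups were about level and far above NCA, whose libraries were close together. Its log2 fold change was 1.12 ± 0.18 for ASO2 (adjusted p = 9.68e-08) and 0.95 ± 0.18 for ASO10 (adjusted p = 0.000186).

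The other, 169475767 to 169476653, was 84.3 kb upstream of the shared-loss region in the direction of transcription and inside the annotated span of the antisense gene MECOM-AS1. ATAC-seq has no strand, so its counts cannot be assigned to either gene. It had 5.80, 5.30 and 11.6 CPM in NCA, 15.3, 23.9 and 18.3 under ASO2, and 15.7, 15.1 and 14.3 under ASO10. NCA replicate 3 was the highest control, and still lay below all 6 ASO libraries. The log2 fold change was 1.33 ± 0.18 for ASO2 (adjusted p = 9.51e-11) and 0.98 ± 0.18 for ASO10 (adjusted p = 0.000120). Both regions were called for each ASO under every other test, scaling, filter and left-out library run, with log2 fold changes from 0.77 to 1.80. Neither was called under ASO10 when a log2 fold change over 1 was also required.

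Other MECOM regions were called under ASO2 and not under ASO10. The region 169430586 to 169431641, 39.2 kb from the shared-loss region, had 7.09, 7.82 and 5.22 CPM in NCA, 10.8, 15.7 and 13.7 under ASO2, and 7.27, 7.51 and 8.99 under ASO10. Its ASO2 libraries did not overlap the others, and it rose by 1.01 ± 0.21 on the log2 scale under ASO2 (adjusted p = 0.000101). ASO2 exceeded ASO10 by 0.77 ± 0.20 (adjusted p = 0.00977), a call lost without ASO2 replicate 2 or without ASO10 replicate 1 or 2 (adjusted p = 0.0736 to 0.142). The average of both ASOs was called higher than NCA here (0.63 ± 0.19, adjusted p = 0.0351), a call lost under 8 of 17 alternatives.

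The region 169195654 to 169196417, 196 kb away on the other side, had 16.1, 14.1 and 13.0 CPM in NCA, 22.7, 26.1 and 21.5 under ASO2, and 18.4, 13.2 and 15.2 under ASO10. ASO2 was again apart from both other groups, which overlapped. It rose by 0.70 ± 0.15 under ASO2 (adjusted p = 0.000393), and ASO2 exceeded ASO10 by 0.58 ± 0.15 (adjusted p = 0.00898). The difference between ASOs was not called without ASO2 replicate 2 or ASO10 replicate 2 or 3 (adjusted p = 0.0610 to 0.162).

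At 169221960 to 169222790 the ASOs stood furthest apart for their error. NCA had 5.67, 6.30 and 9.42 CPM, ASO2 11.6, 13.2 and 10.2, and ASO10 4.11, 5.80 and 6.51. ASO10 overlapped NCA at its lower end and all ASO2 libraries were above both. ASO2 exceeded ASO10 by 1.09 ± 0.22 (adjusted p = 0.000224), a call that held under every alternative run. The rise against NCA under ASO2 was 0.70 ± 0.22 (adjusted p = 0.0274), and it was not called without ASO2 replicate 1 or 2, without NCA replicate 1 or 2, or with DESeq2 or loess offsets (adjusted p = 0.0716 to 0.222). Under ASO10 the log2 fold change was -0.39 ± 0.24 (adjusted p = 0.579).

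Near the internal starts, the region 169149047 to 169150850 was 1.58 kb from the closest start. It had 15.5, 14.0 and 18.9 CPM in NCA, 26.9, 22.9 and 21.1 under ASO2, and 21.6, 21.8 and 18.4 under ASO10. All ASO2 libraries were above NCA, and ASO10 replicate 3 was not. It rose under ASO2 by 0.54 ± 0.15 (adjusted p = 0.00951), a call lost without ASO2 replicate 1 or NCA replicate 1 or 2 (adjusted p = 0.0703 to 0.136). Under ASO10 the log2 fold change was 0.35 ± 0.15 (adjusted p = 0.339), and ASO2 was not shown to differ from ASO10 (0.19 ± 0.15, adjusted p = 0.597). The average of both ASOs was called higher (0.44 ± 0.13, adjusted p = 0.0322), a call lost under 8 of 17 alternatives.

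The remaining named MECOM regions were shallower. The region 169169142 to 169170167 went from 2.19, 3.03 and 3.74 CPM in NCA to 6.88, 5.37 and 10.4 under ASO2, a log2 fold change of 1.33 ± 0.29 (adjusted p = 0.000257), not called without ASO2 replicate 3 (adjusted p = 0.0666). The region 169337535 to 169338421 went from 2.58, 7.06 and 4.88 CPM to 13.9, 9.23 and 7.62, or 1.06 ± 0.24 (adjusted p = 0.000644), not called without ASO2 replicate 1 or NCA replicate 1 (adjusted p = 0.0763 and 0.0809). The region 169299798 to 169300183 went from 1.16, 0.630 and 0.794 CPM to 1.96, 3.97 and 3.12, or 1.81 ± 0.55 (adjusted p = 0.0223), not called without ASO2 replicate 2 or 3, without NCA replicate 2 or 3, or with limma-voom (adjusted p = 0.0772 to 0.201). Under ASO10 the log2 fold changes of these 3 regions were 0.76 ± 0.30, 0.34 ± 0.25 and 0.93 ± 0.57, none called (adjusted p = 0.257, 0.693 and 0.593), and ASO2 was not shown to differ from ASO10 (adjusted p = 0.279, 0.0564 and 0.429). In all 3 regions the lowest ASO2 library was above the highest NCA library. At 169299798 all ASO10 libraries (1.17, 1.59 and 2.21 CPM) were above NCA too, while at 169169142 and 169337535 ASO10 overlapped NCA. The average of both ASOs was called higher at 169169142 (1.05 ± 0.26, adjusted p = 0.00541) and 169337535 (0.70 ± 0.22, adjusted p = 0.0476). These average calls were lost under 2 and 12 of 17 alternatives. Among the tested MECOM neighbours, the lowest average log2 fold change was at 169229703 to 169230136 (-1.50 ± 0.63, adjusted p = 0.217), and it was -0.94 without NCA replicate 2 and -2.08 without ASO10 replicate 2.

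**Figure D4:**
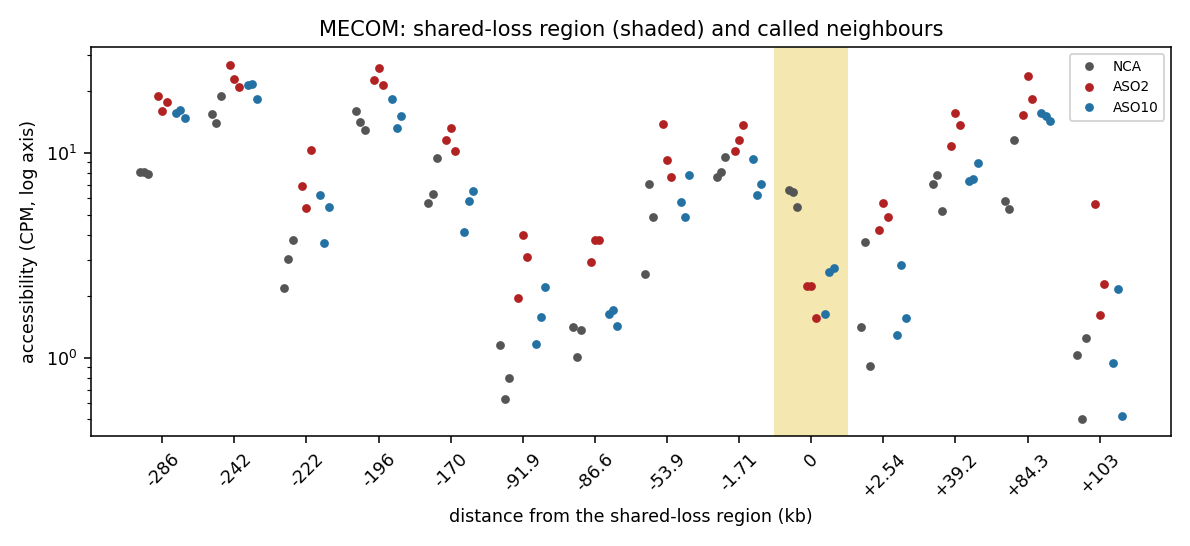
Levels in CPM (vertical log axis) of the 13 MECOM neighbours called in any comparison and of the shaded shared-loss region, with 1 point per library coloured by group, placed in order of distance in kb from the shared-loss region (horizontal axis, not to scale). The region at -286 kb holds 7.94 to 8.12 CPM in NCA and 14.8 to 18.9 CPM in the 6 ASO libraries, while the shared-loss region moves the other way.

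TLN2 had no neighbour called under ASO2, under ASO10 or between the ASOs, and neither DESeq2 (which gave no adjusted p for 5, 31 and 14 of 35) nor limma-voom called one. At an unadjusted p under 0.05, edgeR gave 6, 4 and 3 of 35 regions in these comparisons. For the average of both ASOs 1 region rose and 1 fell, or 2.86% each, against 2.40% higher and 0.594% lower over all tested regions. The share that rose was thus near that of all regions. The region that fell, 62781230 to 62781482, had 3.99, 3.03 and 4.65 CPM in NCA, 1.54, 2.25 and 1.56 under ASO2, and 0.938, 1.82 and 1.95 under ASO10. Here too every ASO library was below every NCA library, as in 2.46% of all tested regions. Its average log2 fold change was -1.21 ± 0.37 (adjusted p = 0.0420). This call was lost on leaving out any 1 library other than ASO10 replicate 3 and ASO2 replicate 2, and with no filter (adjusted p = 0.0516 to 0.271).

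The TLN2 region that rose, 62801855 to 62802338, had 4.38, 2.52 and 2.38 CPM in NCA, 6.74, 6.22 and 3.95 under ASO2, and 7.04, 5.01 and 5.08 under ASO10. ASO2 replicate 3 overlapped NCA replicate 1, and the other ASO libraries were above. The average log2 fold change was 0.87 ± 0.27 (adjusted p = 0.0451), a call lost under 11 of 17 alternatives, among them leaving out ASO2 replicate 1 or 2, ASO10 replicate 1 or 3, or NCA replicate 2 or 3 (adjusted p = 0.0552 to 0.270). These regions lay 158 and 179 kb from the shared-loss region, on the same side, and moved in opposite directions. The sum over all 46 TLN2 neighbours was 122 ± 3.74 CPM with NCA, 121 ± 7.41 with ASO2 and 125 ± 3.16 with ASO10 (SD, n = 3), and the groups overlapped.

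GALNT14 had no neighbour called by edgeR, DESeq2 or limma-voom in any of the 4 comparisons, with no adjusted p from DESeq2 for 5 to 20 of 26. With loess offsets, 31008326 to 31009218 was called lower under ASO2 (log2 fold change -0.52 ± 0.17, adjusted p = 0.0450). At an unadjusted p under 0.05, edgeR gave 3 of 26 for ASO2, 3 for ASO10, 5 for the average and 2 between the ASOs. Median log2 fold changes of the neighbours were -0.231 for ASO2 and -0.249 for ASO10. Of the 26, 11 were above 0 for ASO2 (42.3%, against 47.9% of all tested regions) and 10 for ASO10 (38.5%, against 49.4%). For the average of both ASOs the median was -0.104 and 7 were above 0 (26.9%, against 48.9%). The neighbours summed to 150, 131 and 135 CPM in NCA, 135, 124 and 117 under ASO2 and 121, 122 and 129 under ASO10. The mean was 90.2% of NCA for ASO2 and 89.2% for ASO10. ASO2 overlapped NCA, and all ASO10 libraries were below it.

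Among single GALNT14 regions, 30978962 to 30980309 had 11.5, 10.5 and 12.9 CPM in NCA and 5.63, 9.22 and 7.29 under ASO10, a log2 fold change of -0.65 ± 0.21 that missed the threshold (adjusted p = 0.0912) and passed it when at least 10 counts were required in every library (-0.68 ± 0.20, adjusted p = 0.0390). It was picked out after its values were seen. Among the tested GALNT14 neighbours, the average log2 fold change was highest at 30923116 to 30923542 (0.94 ± 0.47, adjusted p = 0.348), although it was 0.47 without NCA replicate 1 and 1.77 without NCA replicate 2. It was lowest at 31028084 to 31028339 (-1.09 ± 0.51, adjusted p = 0.30). Of the 122 tested neighbours of the 3 genes, 3 had all 6 ASO libraries below all NCA libraries, 2 in TLN2 and 1 in GALNT14. In 6 they were above, all in MECOM. Over all tested regions the shares were 2.46% below and 3.27% above, so the count below was near the share of all regions.

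**Figure D5:**
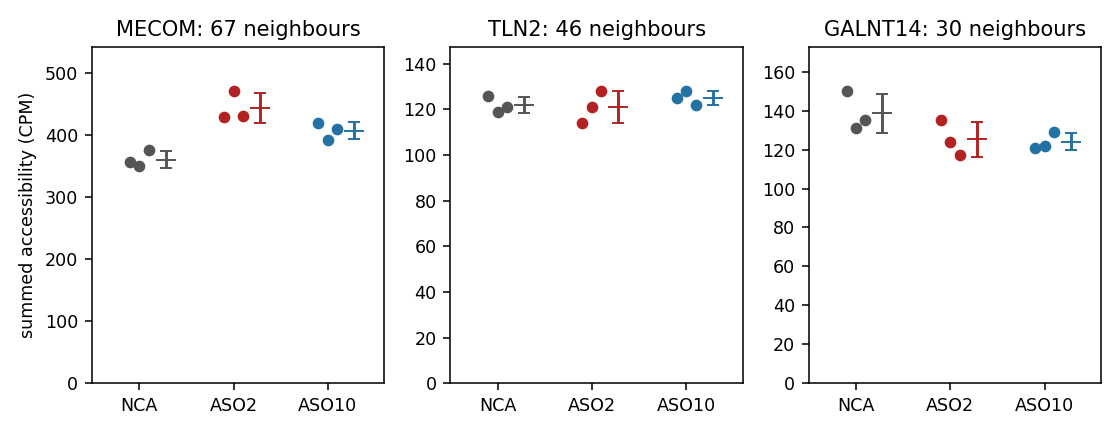
Summed level in CPM (vertical axis, from 0) of all neighbours of each gene, leaving out the shared-loss region, by group, with 1 point per library and the mean with its SD. MECOM runs from 349 to 375 CPM in NCA and from 392 to 470 CPM in the ASO libraries, while in TLN2 the groups overlap.

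No region over or nearest a start of the 3 genes was called, which does not show that the starts were unchanged. The 250 bases before 1 start of each gene are printed from the RefSeq promoter table (GRCh38.p14), 5′ to 3′ along the gene. An accessible region lay over each of these starts, and the levels of these start regions follow. The start regions cover the TLN2 and GALNT14 windows whole and the MECOM window only in part, up to 169147672. Capitals mark GC boxes (GGGCGG on either strand, so CCGCCC in the printed strand), the element bound by SP-family factors. The MECOM window lies before an internal start on the minus strand (chr3:169147472-169147721), the TLN2 window before its start on the plus strand (chr15:62390300-62390549), and the GALNT14 window before its first start on the minus strand (chr2:31138441-31138690).
MECOM: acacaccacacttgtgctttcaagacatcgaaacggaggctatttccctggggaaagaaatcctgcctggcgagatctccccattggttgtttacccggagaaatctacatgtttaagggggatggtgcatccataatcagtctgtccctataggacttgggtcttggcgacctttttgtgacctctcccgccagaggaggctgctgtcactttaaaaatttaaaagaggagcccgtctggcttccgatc
TLN2: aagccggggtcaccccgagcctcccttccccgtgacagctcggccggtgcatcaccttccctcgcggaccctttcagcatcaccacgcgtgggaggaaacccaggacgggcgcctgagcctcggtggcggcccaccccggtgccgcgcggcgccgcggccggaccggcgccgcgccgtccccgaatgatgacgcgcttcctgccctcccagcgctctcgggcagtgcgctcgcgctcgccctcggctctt
GALNT14: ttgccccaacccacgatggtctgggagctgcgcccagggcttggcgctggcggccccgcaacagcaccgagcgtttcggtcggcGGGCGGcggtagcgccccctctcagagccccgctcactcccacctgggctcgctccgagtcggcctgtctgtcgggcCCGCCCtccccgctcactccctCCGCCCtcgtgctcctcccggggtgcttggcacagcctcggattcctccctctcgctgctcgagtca
The printed GALNT14 window held 3 GC boxes and the other printed windows none, where 42.6% of 35116 promoters of this length held at least 1. The windows of the other starts differed within a gene: those of MECOM before 169663712 and 169146539 held 2 and 1, and that of GALNT14 before 31129640 held 0. The GC content of the printed GALNT14 window was 72.4%, that of TLN2 74.4% and that of MECOM 49.6%. Neither the E-box CACGTG, nor TGACTCA (AP-1), nor TGACGTCA (cyclic AMP response element) was in any of these windows on either strand, where 6.34%, 4.20% and 1.65% of promoters held them. A letter match is a description of the sequence only.

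The start region of TLN2, 62389940 to 62392376, had 25.8, 15.5 and 21.3 CPM in NCA, 17.4, 18.9 and 15.7 under ASO2, and 21.6, 26.2 and 19.0 under ASO10. The groups overlapped, with log2 fold changes of -0.27 ± 0.15 (adjusted p = 0.359) and 0.10 ± 0.15 (adjusted p = 0.873). At the first start of GALNT14, the region 31137244 to 31138897 had 26.8, 22.8 and 27.3 CPM in NCA, 20.6, 23.3 and 21.0 under ASO2, and 30.1, 23.0 and 26.3 under ASO10. Its log2 fold changes were -0.24 ± 0.14 (adjusted p = 0.377) and 0.04 ± 0.14 (adjusted p = 0.945), and the groups overlapped. At the internal starts of MECOM, the region 169146507 to 169147672 had 12.5, 11.0 and 12.1 CPM in NCA, 9.26, 9.23 and 11.2 under ASO2, and 12.0, 9.56 and 13.7 under ASO10, or -0.25 ± 0.19 and -0.02 ± 0.19. The most accessible MECOM region, 169661636 to 169663338, ended 374 bases from the upstream start and had 30.5, 36.9 and 34.8 CPM in NCA, 34.4, 33.4 and 33.3 under ASO2, and 42.9, 38.2 and 39.1 under ASO10. Here ASO10 was above NCA in all libraries, by 0.23 ± 0.12 (adjusted p = 0.504), and ASO2 was at -0.02 ± 0.12. None of these start regions was called.

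The partners of the 3 gene products were examined at their starts, by lists made with earlier results of these data known. Of 10448 gene-start regions in all, 0.526% were called higher and 1.01% lower under ASO2, 2.33% and 0.0383% under ASO10, 1.11% and 0.354% for the average, and 0.287% and 3.43% for ASO2 against ASO10. Of 22 genes of talin and integrin adhesion, 16 had a tested region within 1 kb of a start. ITGB1, the common beta subunit of many integrins, fell under ASO2, from 26.2 ± 3.26 to 19.6 ± 4.41 CPM (SD, n = 3; log2 fold change -0.43 ± 0.14, adjusted p = 0.0417). This was 1 of 16, where 1.01% of all gene starts were called lower, and DESeq2 did not call it. RAP1B, a small GTPase that brings talin to the membrane, was lower under ASO2 than ASO10 by 0.45 on the log2 scale (-0.45 ± 0.13, adjusted p = 0.0221), where 3.43% of gene starts were. DESeq2 did not call RAP1B (adjusted p = 0.0571). Against NCA, edgeR did not call RAP1B under ASO2 (-0.30 ± 0.13, adjusted p = 0.183) or ASO10 (0.15 ± 0.13, adjusted p = 0.739). No gene of this list was called under ASO10 or for the average, with 2 and 1 at an unadjusted p under 0.05 by edgeR and none called by DESeq2 or limma-voom.

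Of 24 genes of mucin-type O-glycosylation, 11 had a tested start region, and none was called in any comparison by edgeR, DESeq2 or limma-voom. By edgeR 1 of them, for the average of both ASOs, had an unadjusted p under 0.05, and none had one in the other 3 comparisons. The most accessible in NCA were C1GALT1, which extends the first sugar to core 1 (59.0 CPM), GCNT1, which branches core 1 to core 2 (52.3 CPM), and GALNT2, a relative of GALNT14 (48.4 CPM). The list's median log2 fold change under ASO2 was -0.186, beside -0.043 for all gene starts.

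Of 22 genes of the PRDM family and cofactors of MECOM, 18 had a tested start region. CTBP1, a corepressor that binds EVI1, fell under ASO2 by 0.54 on the log2 scale (-0.54 ± 0.14, adjusted p = 0.00416). This was 1 of 18, where 1.01% of all gene starts were called lower. CTBP1 was also lower under ASO2 than ASO10 (-0.56 ± 0.14, adjusted p = 0.00468). GATA2, a haematopoietic factor whose gene EVI1 is known to activate, was lower under ASO2 than ASO10 (-0.44 ± 0.12, adjusted p = 0.0145). No gene of this list was called under ASO10 or for the average by edgeR, with 4 and 2 at an unadjusted p under 0.05. DESeq2 and limma-voom each called 1 higher under ASO10. Without ASO2 replicate 3, no gene of the 3 lists was called under ASO2 or between the ASOs.

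For each shared-loss region, the tested regions elsewhere in the genome with the most similar levels over the 9 libraries were found by Pearson's r of log2 CPM among 75950 candidates. These are descriptions, since the libraries fall into the same 3 groups and the highest of many values was taken. Closest to the MECOM region was 61546066 to 61546269 on chromosome 4, in ADGRL3, a latrophilin adhesion receptor gene (r = 0.979), with 3.52 ± 0.454 CPM with NCA, 1.25 ± 0.319 with ASO2 and 1.40 ± 0.408 with ASO10. Next came a region 5.84 kb from RPP25 (r = 0.969) and one 1390 kb from EPHA3 (r = 0.967). Closest to the TLN2 region was 11686936 to 11687864 on chromosome X, 21.0 kb from ARHGAP6, with 18.5 ± 2.97, 10.3 ± 1.70 and 8.69 ± 1.65 CPM (r = 0.978), then regions in PDGFRL (r = 0.975) and SLC48A1 (r = 0.968). Closest to the GALNT14 region was 64638029 to 64638354 on chromosome 11, in the neurexin gene NRXN2, with 3.28 ± 0.595, 1.47 ± 0.473 and 1.42 ± 0.360 CPM (r = 0.980), then one 15.4 kb from MICU2 (r = 0.972) and one in CHCHD6 (r = 0.952). Those by ARHGAP6 and in PDGFRL and CHCHD6 were themselves called lower under both ASOs.

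The outermost members lay 41.9 and 5.09 kb beyond the ends of MECOM, 45.5 and 46.7 kb beyond TLN2, and 48.5 and 31.8 kb beyond GALNT14, in the order of the coordinates. The first regions outside lay at 82.9 and 60.9 kb, 63.9 and 52.7 kb, and 63.4 and 76.5 kb. The first regions outside moved in different directions, by means of NCA, ASO2 and ASO10. They had 1.08, 1.85 and 2.58 CPM before MECOM and 0.813, 1.29 and 0.291 CPM after it. For TLN2 they had 6.2, 7.3 and 8.49 CPM before, and 7.93, 6.27 and 5.05 CPM after. For GALNT14 they had 4.6, 3.48 and 5.02 CPM before, and 1.6, 1.1 and 0.942 CPM after. The last region inside TLN2, at 46.7 kb, had 1.51, 1.75 and 1.21 CPM. These levels are given as a description.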

How the data were processed

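ATAC-seq counts of 9 libraries were used, as whole-number counts per region that the authors deposited for 148797 regions common to all libraries, with no normalization. The submitters' processing notes name FastQC, Bowtie2 2.2.6, SAMtools, MACS2 2.1.2 and DESeq2 1.42.0 and the build hg38 (GRCh38), with no role or order. How Tn5 offsets, duplicates and pooled peaks were handled is not given in the sources used here, and region borders set where a fall is counted. The labels name RNA as the molecule, but their protocol describes tagmented genomic DNA, which was followed.

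Totals of 7293565 to 10948569 counts limit precision at regions of a few counts, and the SE of a fold change carries this. After filterByExpr by group 119417 regions were kept, TMM factors scaled the libraries, and CPM use the scaled sizes. The 4 comparisons (each ASO against NCA, their average against NCA, and ASO2 against ASO10) share libraries. They were tested with edgeR's robust quasi-likelihood fit of all 9 libraries (edgeR 4.0.16, R 4.3.3) with Benjamini-Hochberg adjustment over all tested regions and a threshold of 0.05. The SE is the log2 fold change divided by the square root of its F statistic. On simulated counts with 200 regions of 119417 changed by 1 log2 unit, the comparison of ASO2 with NCA recovered 18.5% of these, and 82.4% of the 34 whose level exceeded 3 log2 CPM. Of its 39 calls 2 were false. Alternatives were DESeq2, limma-voom (limma 3.58.1), other scalings, filters, windows and thresholds, a replicate block, and leaving out each library.

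Gene spans came from a RefSeq table (GRCh38.p14), and strands, starts and 250-base promoters from its promoter table. The members and lists were chosen with earlier results of these data known. Named regions are, per gene, the shared-loss region, its adjacent tested regions, those over a start or with the highest level, up to 10 called in any comparison, the highest and lowest average fold change, and those at the window's edge. For likeness, the 3 regions with the highest r and a mean log2 CPM of at least 1 are named, and for lists the called genes and up to 3 of the highest level. No library was a copy of another of its group: chi-square divided by its degrees of freedom was 2.93 to 3.65 between replicates. Libraries of different groups were not compared by this measure.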

Additional observations from a re-analysis of the deposited data

Results flagged for a closer look

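In 5 MECOM neighbours the effects of the ASOs differed from each other by the direct comparison (edgeR, adjusted p under 0.05), always with ASO2 above ASO10. The log2 difference, ASO2 minus ASO10, was 0.58 at 169195654 to 169196417, 1.09 at 169221960 to 169222790, 0.66 at 169389434 to 169390970, 1.36 at 169394286 to 169394617 and 0.77 at 169430586 to 169431641. The adjusted p-values were 0.00898, 0.000224, 0.0461, 0.0247 and 0.00977. In each of these regions all 3 ASO2 libraries were above all 3 ASO10 libraries. Groups of 3 libraries are too small for single libraries to be examined as outliers.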

How the results depend on the processing

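The number of neighbours called under ASO2 was 12, and 7 to 11 when 1 library was left out. Under ASO10 it was 2, and 0 with a log2 fold change over 1 also required. For the average of both ASOs it was 8, and 4 with DESeq2, limma-voom, loess offsets or the fold limit, 5 with no filter on low counts, and 3 to 6 without 1 library. Between the ASOs it was 5, and 3 with DESeq2, 2 with the fold limit and 1 to 5 without 1 library (1 without ASO2 replicate 2, 3 without any 1 ASO10 library). All 3 shared-loss regions were called under both ASOs, and 1 to 2 without 1 library. TLN2 alone was called without ASO10 replicate 1 or 3 or NCA replicate 1 or 2. GALNT14 was not called with limma-voom, loess offsets or no filter, and the filter of 10 counts removed it. DESeq2 gave no adjusted p for the 3 regions under ASO10, so it has no value there. The same counts chose the 3 regions, and their fold changes stayed below 0 in all alternatives, which is not a separate test. Without 1 library that of TLN2 under ASO10 ran from -2.09 to -1.54. Summed with the region within 1 kb they were -0.06, -0.56 and -0.31 in MECOM (ASO2, ASO10, average) and -0.89 and -1.16 in GALNT14 (ASO2, average). Some small average fold changes changed sign: at 62591566 (TLN2) the value of 0.03 became -0.37 with limma-voom, -0.0 with total counts and -0.75 to 0.81 without 1 library. Without 1 library it ran from -0.03 to 0.34 at 62637506, -0.26 to 0.08 at 62389940 and, in GALNT14, -0.08 to 0.56 at 30949449. List genes called under ASO2 numbered 2, and 1 with DESeq2 or no filter, 0 with the fold limit and 0 to 2 without 1 library. Under ASO10 there were 0, and 1 with DESeq2, limma-voom, a minimum of 10 counts or a fit of only the 2 groups compared. Between the ASOs there were 3, and 5 with limma-voom or only 2 groups, 1 with loess offsets, 7 with the 10-count minimum, 0 with the fold limit and 0 to 6 without 1 library. A fit of only 2 groups cannot give the average. Of 1038 pairs of a result and an alternative, 884 were labelled unchanged. Among them were 596 of 696 pairs for single neighbours, which kept both sign and call. The labels for the other results were looser. Counts could move within a set ratio, so that a fall from 3 shared-loss regions to 2 passed. Fold changes of the shared-loss regions could move by less than the SD between libraries of a group, whether or not the call was kept.

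Replicate numbers did not pair the libraries: deviations of same-numbered libraries correlated at -0.0363 to 0.0126. With the replicate block, 10, 2, 7 and 5 neighbours were called in the 4 comparisons, and GALNT14 under ASO10 kept a log2 fold change of -1.90 but was not called.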
